A study of Mus musculus with 6 samples.

Results

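The 10 genes described here encode 4 of the 5 DNA-binding subunits of the transcription factor NF-κB (Nfkb1, Nfkb2, Rel and Relb), 2 classical inhibitors that hold it in the cytoplasm (Nfkbia and Nfkbie), 2 nuclear proteins of the IκB family (Nfkbiz and Bcl3) and 2 regulators of ubiquitin chains in the signaling complex (Tnfaip3 and Birc3). They were taken by gene symbol from the 21899 genes listed for each sample, and each of the 10 symbols had 1 row. RNA was sequenced from tumors of Lewis lung carcinoma (LLC), a mouse lung cancer line used here as luciferase-bearing LLC-luc cells, grown under the skin of male C57BL/6 mice. In the Laser group the tumors were only irradiated, after an injection of saline according to the study's methods. In the PC-La group they were injected with phycocyanin (PC), a light-absorbing protein of cyanobacteria that acts as a photosensitizer, and in the SePC-La group with phycocyanin from selenium-enriched Spirulina (Se-PC), each before irradiation. Per the labels, injections were given every 5 days and irradiation at 620 nm lasted 10 min and followed 4 h later, whereas the study's methods give another wavelength and another interval. All 3 groups were irradiated, and tumors without light were not analysed here. Each group had 2 samples, for which the labels do not say whether they came from separate animals, so all p-values measure only the spread between these samples.

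NF-κB is a family of dimers that wait in the cytoplasm bound to IκB inhibitors. Signals such as TNF, IL-1 or Toll-like receptor ligands activate the IKK kinases, which mark the inhibitor for destruction and free the dimer to enter the nucleus. Among the first genes that the dimers switch on are their own inhibitors, so that IκBα, the product of Nfkbia, is made again within the response and ends it. In tumors the pathway is known for inflammatory gene programs both in the cancer cells and in the leukocytes among them.

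The short DNA element that the dimers bind, the κB element, was looked for on both strands of the promoter windows listed by RefSeq on GRCm38.p6, each from 250 bases before to 50 bases after a gene start. Windows were listed for 7 of the 10 genes. A match to the κB consensus was present in 6 of these 7, against 9.55% of all 27025 genes with a window and 8.46% of all 32851 windows, and a match to GGGANNTTCC, whose matches are a subset of those of the consensus, in 2 of the 7, Nfkbia and Nfkb2, against 1.63% of genes and 1.47% of windows. Some genes have several windows, Nfkb2 and Tnfaip3 among them. The stretches below are shown because they hold matches in the windows of genes whose levels follow. A match of letters does not show that the dimers bind there, and binding was not measured. Each is written 5′ to 3′ on the strand of its gene, capitals mark the bases of a match on either strand, and where 2 matches overlap both are in capitals. Nfkbia, minus strand, is shown for chr12:55492648-55492767, the 120 bases before the start, and the others for 30 bases around a match. These are Nfkb2, plus strand, chr19:46304688-46304717, Rel, minus strand, chr11:23771041-23771070, Nfkbie, plus strand, chr17:45555584-45555613, Bcl3, minus strand, chr7:19822734-19822763, and Tnfaip3, minus strand, chr10:19015403-19015432.
Nfkb2: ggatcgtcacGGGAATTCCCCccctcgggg
Rel: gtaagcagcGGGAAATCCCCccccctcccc
Nfkbia: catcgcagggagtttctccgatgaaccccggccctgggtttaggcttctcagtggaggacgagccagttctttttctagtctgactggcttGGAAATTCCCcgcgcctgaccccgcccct
Nfkbie: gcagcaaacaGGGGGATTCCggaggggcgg
Bcl3: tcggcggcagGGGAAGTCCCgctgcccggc
Tnfaip3: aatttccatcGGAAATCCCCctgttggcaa
The match of Nfkbia lay from −29 to −20 and the nearer match of Tnfaip3 from −12 to −3. Positions are counted back from −1, the base before the start listed by RefSeq. That of Bcl3 lay after its start, from +3 to +12, and those of Rel and Nfkbie further upstream, beginning at −92 and −106. By the GENCODE gene positions given below, the stretches of Nfkb2, Bcl3 and Tnfaip3 lie inside the gene, where RefSeq and GENCODE starts differ. The matches of Nfkb2 to GGGANNTTCC, at chr19:46305459-46305468 and chr19:46305705-46305714, lay in the windows of its other 2 listed starts, not in the stretch shown. A further consensus match at the first start of Nfkb2 lay from −11 to −2. In the window of Birc3 no match was found, which says only that these letters are not in that window.

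**Figure D1:**
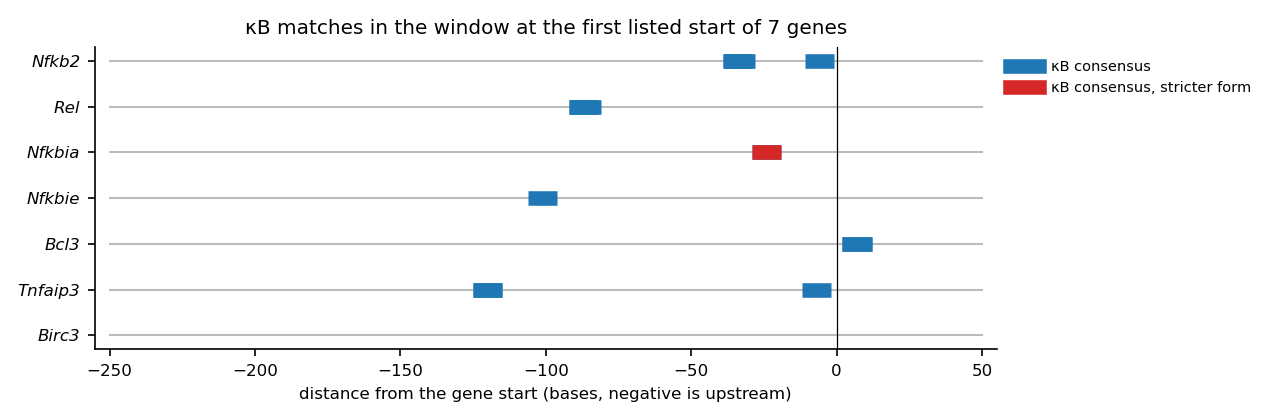
Positions of κB matches in the 300-base window at the first listed start of 7 genes, with distance from the start in bases on the horizontal axis. Blue blocks are matches to the κB consensus and the red block is the match to its stricter form GGGANNTTCC in Nfkbia, from −29 to −20, while Birc3 has no block.

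Levels are given as FPKM, fragments counted relative to exon length and to the depth of the sample, a unit per length that allows genes to be compared. All 10 genes passed the filter on low values, a 6-sample mean of 1 FPKM or more. The reads behind them, recovered from the FPKM values and exon lengths, ranged from 114 for Bcl3 in Laser replicate 2 to 4894 for Nfkbia in SePC-La replicate 2, in samples of 14447792 to 17649489 reads. Nfkbia had the highest level of the 10 in each of the 6 samples and Rel the lowest. Averaged over the samples the order below Nfkbia was Nfkb2, Nfkbiz, Nfkb1, Nfkbie, Bcl3, Relb, Birc3, Tnfaip3 and Rel. Mouse tumors of this kind hold many cell types, and in bulk tissue fewer cells of a type and less RNA per cell cannot be told apart. Of the markers of epithelial cells, Krt8 and Krt18 stood at 78.1 FPKM or more in all samples while Epcam was at most 0.13 FPKM. The lung markers Nkx2-1 and Scgb1a1 were listed at 0 in all samples. The lung markers Sftpa1, Sftpb and Sftpc were above 0 in some samples, at 0.37 FPKM or less. Of the 3 pairs of replicates the Laser pair was the least alike, with a correlation of 0.946 across genes, which are not independent replicates, and this pair stands behind each comparison with Laser below.

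**Figure D2:**
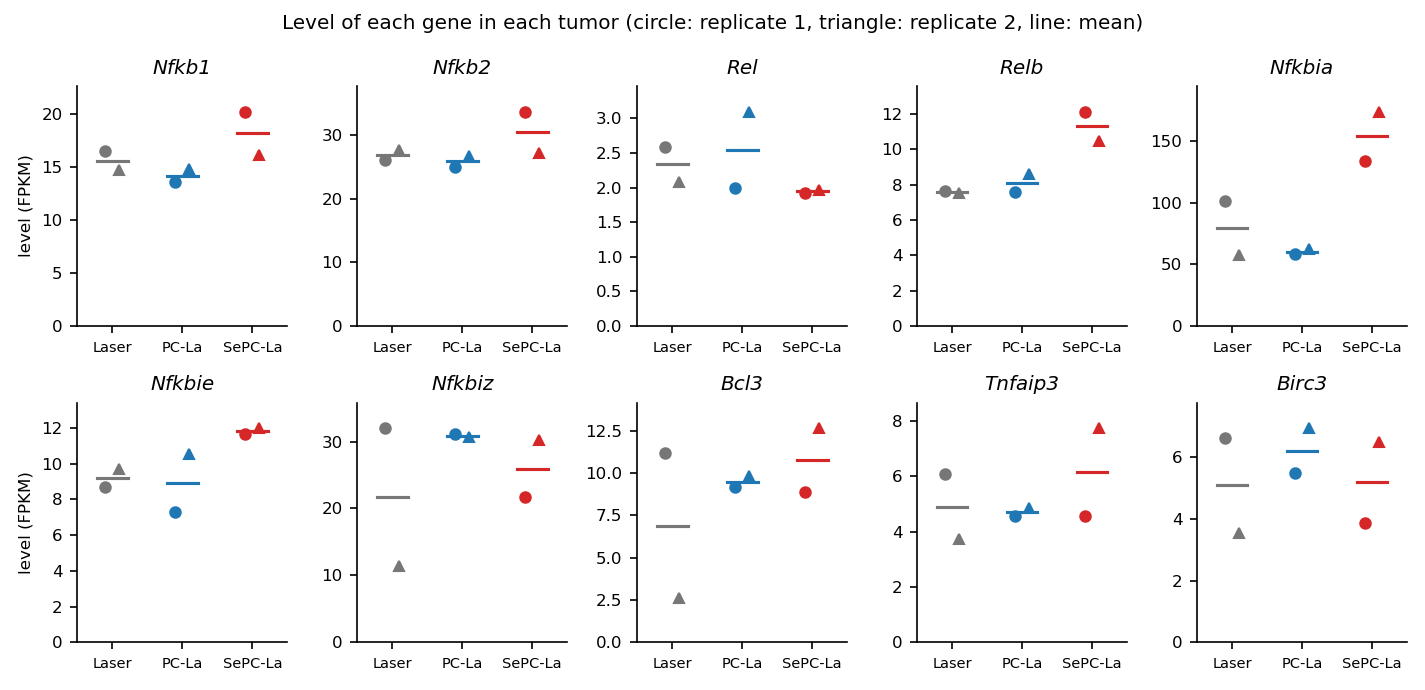
Level of each of the 10 genes in FPKM (vertical axes, from 0) in the 6 samples by group, with circles for replicate 1, triangles for replicate 2 and lines for the mean of the 2. Nfkbia and Relb are higher in both SePC-La samples than in the other 4, and Bcl3, Nfkbiz and Birc3 are low in Laser replicate 2.

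Nfkbia, Relb and Nfkbie were higher in both SePC-La samples than in the other 4. The share of all genes that were so was not counted, and shares for each pair of groups are given below. Mean Nfkbia was 1.94 times that of Laser and 2.55 times that of PC-La, and mean Relb 1.49 and 1.40 times. The genes of the nuclear IκB proteins, of A20 and of cIAP2 overlapped between SePC-La and Laser, and between PC-La and Laser all 10 genes overlapped. Differences were tested with limma on log2(FPKM + 1), where adding 1 shrinks the differences of genes with low levels, with 1 fit of all 6 samples and Benjamini-Hochberg adjustment over 10853 genes. None of the 10 genes had an adjusted p under 0.05 from limma in any of the 3 comparisons, and none had one from limma voom on the recovered reads. Over all genes tested the share with such a p was 0% in each of them. At an unadjusted p under 0.05, 2 of the 10, Nfkbia and Relb, were higher in SePC-La than in Laser, where 4.9% of all genes were, and none was lower, where 7.24% of all genes were. Nfkbia and Relb also reached it as higher in SePC-La than in PC-La, which shares the SePC-La samples, against 9.91% of all genes, and again none was lower, against 14.4%. Between PC-La and Laser none of the 10 reached it in either direction, against 5.78% of all genes. The screen used here took the study's cut-offs, an absolute log2 fold change over 1 together with an unadjusted p under 0.05. Its p came from limma, whereas the study used DESeq, so its outcome is not that of the study's own screen. This screen was met by Nfkbia between SePC-La and PC-La, where 2.98% of all genes met it. It was met by none of the 10 between SePC-La and Laser, against 0.682%, and by none between PC-La and Laser, against 1.29%.

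Counted by samples alone, 3 genes (Nfkbia, Relb and Nfkbie) were higher in both SePC-La samples than in both Laser samples, against 15% of all genes, and Rel was lower, against 25.6%. Between PC-La and Laser the groups overlapped for all 10 genes, while over all genes 20.4% were higher and 21.6% lower without overlap. Between SePC-La and PC-La, 5 genes (Nfkb1, Nfkb2, Relb, Nfkbia and Nfkbie) were higher without overlap, against 26% of all genes, and Rel and Nfkbiz were lower, against 39.5%. The median log2 fold change of the 10 was 0.30 between SePC-La and Laser, beside −0.06 over all genes tested, 0.03 between PC-La and Laser, beside −0.00062, and 0.25 between SePC-La and PC-La, beside −0.07. The comparisons share samples, so their values are set side by side and not related to each other.

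**Figure D3:**
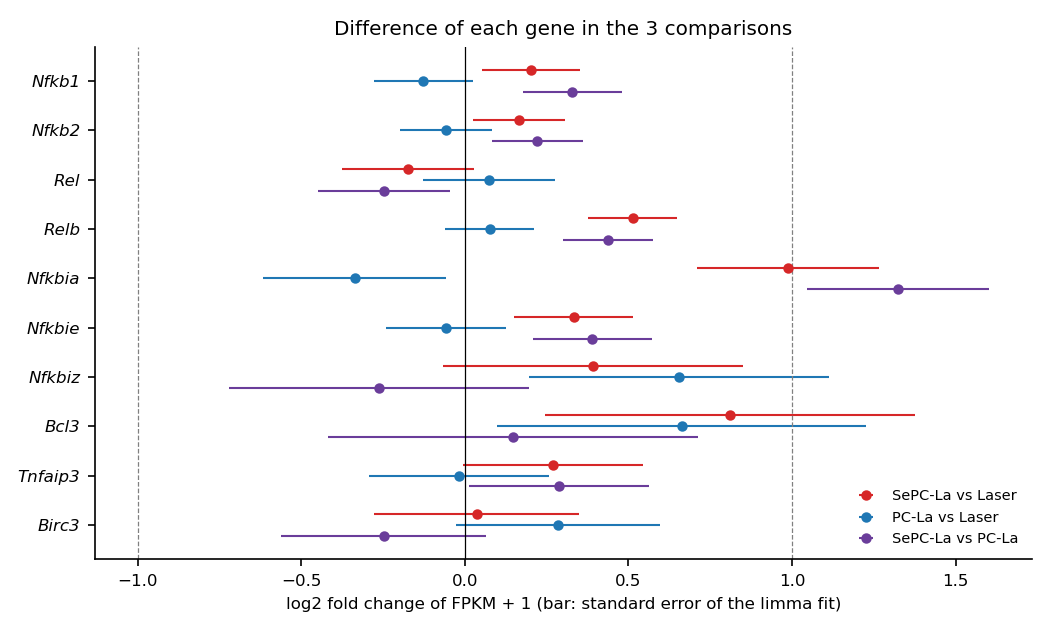
Log2 fold change of FPKM + 1 (horizontal axis) of each gene in SePC-La against Laser (red), PC-La against Laser (blue) and SePC-La against PC-La (purple), with bars for the standard error of the limma fit and dashed lines at an absolute value of 1. Nfkbia lies at 1.32 in SePC-La against PC-La, and the bars of Bcl3 and Nfkbiz are the widest.

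Nfkbia (ENSMUSG00000021025, chr12:55489410-55492647 on GRCm38) encodes IκBα, which masks the nuclear localization signal of NF-κB dimers and pulls them off DNA. It stood at 102 and 57.5 FPKM in the Laser samples, at 58.4 and 62.5 FPKM in the PC-La samples and at 134 and 174 FPKM in the SePC-La samples. Both SePC-La samples were thus above the other 4, and Laser replicate 1 lay above the PC-La pair while Laser replicate 2 lay below it. The means were 79.6 ± 31.2 FPKM in Laser, 60.4 ± 2.89 FPKM in PC-La and 154 ± 28.3 FPKM in SePC-La (SD, n = 2 each). The mean in SePC-La was 2.55 times that in PC-La, and the limma log2 fold change, taken on FPKM + 1, was 1.32 (SE 0.28, limma adjusted p = 0.126). Against Laser the ratio of means was 1.94 and the limma log2 fold change 0.99 (SE 0.28, limma adjusted p = 0.376). That between PC-La and Laser was −0.34 (SE 0.28, limma adjusted p = 0.771). Of all genes tested, 0.728% had a higher log2 fold change than Nfkbia in SePC-La against PC-La, and 0.82% in SePC-La against Laser.

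The difference of Nfkbia from Laser depended on which Laser sample was kept. Without Laser replicate 1 the log2 fold change between SePC-La and Laser was 1.39 (limma adjusted p = 0.0486), and without Laser replicate 2 it was 0.58. With median-ratio scaling between samples in place of the deposited scaling it was 1.07, and the screen was then met, as it was by 0.783% of all genes. In SePC-La against PC-La it lay between 1.14 and 1.51 with any 1 sample left out, with a limma adjusted p between 0.0261 and 0.582. In a fit of only the 4 samples compared, which leaves out the spread of the Laser pair, that adjusted p was 0.0262, and 637 genes were under 0.05 in place of 0.

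The summed markers of neutrophils, short-lived inflammatory leukocytes, were highest in the SePC-La samples, as Nfkbia and Relb were. The 8 markers summed to 148 and 32.1 FPKM in Laser, to 146 and 77.9 FPKM in PC-La and to 331 and 437 FPKM in SePC-La. Of them S100a9 and S100a8 held most of the sum. Ly6g was listed at 0 in Laser replicate 2 and was at most 0.91 FPKM elsewhere. Ngp was at 0 in Laser replicate 1 and Camp in PC-La replicate 1. In SePC-La replicate 1, Ngp was at 0.17 FPKM, below 0.73 and 0.60 FPKM in PC-La. Ly6g was at 0.51 FPKM there, below 0.54 FPKM in PC-La replicate 1. Each of the other neutrophil markers was higher in both SePC-La samples than in any other sample. For Camp this rested on only 2 and 6 reads in SePC-La, with 2 reads in Laser replicate 2. The 8 macrophage markers summed to 1322 and 2095 FPKM in Laser, to 1573 and 1715 FPKM in PC-La and to 971 and 1454 FPKM in SePC-La. The SePC-La pair thus did not stand apart in this sum, of which Lyz2 was the largest part. All of these markers but Cd68 were lowest in SePC-La replicate 1. Adgre1, for example, was at 6.78 FPKM there and at 18.1 FPKM in SePC-La replicate 2. The 5 erythroid markers, of hemoglobin and heme synthesis genes, did stand apart in SePC-La. Their sums were 613 and 932 FPKM there, against 127 and 13.6 FPKM in Laser and 263 and 361 FPKM in PC-La. The part of these cell types in the levels of Nfkbia and Relb was not tested.

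Nfkbie (ENSMUSG00000023947, chr17:45555703-45563169), which encodes IκBε, the inhibitor that returns more slowly in a response, was at 8.67 and 9.69 FPKM in Laser, 7.27 and 10.6 FPKM in PC-La and 11.6 and 12.0 FPKM in SePC-La. The SePC-La pair was above the other 4 samples, with PC-La replicate 2 closest below it. In SePC-La the log2 fold change was 0.33 against Laser (SE 0.18, limma adjusted p = 0.490) and 0.39 against PC-La (SE 0.18, limma adjusted p = 0.242).

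Relb (ENSMUSG00000002983, chr7:19606217-19629438) encodes the subunit that pairs with p52 in the non-canonical branch of the pathway. Its level was 7.66 and 7.54 FPKM in Laser, 7.58 and 8.58 FPKM in PC-La and 12.1 and 10.5 FPKM in SePC-La. The SePC-La samples were again above the other 4, and here the Laser samples were nearly equal. The mean of 11.3 ± 1.17 FPKM in SePC-La was 1.49 times the 7.60 ± 0.0876 FPKM of Laser and 1.40 times the 8.08 ± 0.712 FPKM of PC-La (SD, n = 2 each). The limma log2 fold change was 0.51 against Laser (SE 0.14, limma adjusted p = 0.376) and 0.44 against PC-La (SE 0.14, limma adjusted p = 0.148). With any 1 sample left out these stayed between 0.42 and 0.61 and between 0.34 and 0.53, so the Relb difference kept its direction without either Laser sample. Neither reached an absolute value of 1.

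Rel (ENSMUSG00000020275, chr11:23736847-23770970), the c-Rel subunit best known from lymphocytes, had 2.58 and 2.09 FPKM in Laser, 1.99 and 3.10 FPKM in PC-La and 1.93 and 1.97 FPKM in SePC-La. It was the 1 subunit whose SePC-La pair lay below all other samples, barely under PC-La replicate 1, on 208 and 257 reads. In SePC-La its log2 fold change was −0.17 against Laser (SE 0.20, limma adjusted p = 0.728) and −0.25 against PC-La (SE 0.20, limma adjusted p = 0.462). The 8 T cell markers summed to between 5.55 and 17.5 FPKM and the 4 B cell markers to at most 1.33 FPKM, and neither list stood apart in SePC-La.

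Nfkb1 (ENSMUSG00000028163, chr3:135584655-135691547) encodes p105, the precursor of p50, and was at 16.5 and 14.7 FPKM in Laser, 13.6 and 14.7 FPKM in PC-La and 20.2 and 16.1 FPKM in SePC-La. Nfkb2 (ENSMUSG00000025225, chr19:46304320-46312385) encodes p100, the precursor of p52, and was at 26.1 and 27.7 FPKM in Laser, 24.9 and 26.8 FPKM in PC-La and 33.7 and 27.3 FPKM in SePC-La. For both genes SePC-La replicate 1 was the highest of the 6 samples, and SePC-La replicate 2 lay within the range of Laser. Between SePC-La and PC-La the log2 fold change was 0.33 for Nfkb1 (SE 0.15, limma adjusted p = 0.235) and 0.22 for Nfkb2 (SE 0.14, limma adjusted p = 0.351). Exons of Nfkb2 share 11.6% of their bases with AC114539.1 and 6.52% with Psd, both on the opposite strand, and whether the counting used strand is not given in the sources used here.

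The fifth subunit, Rela, which encodes p65 and is not among the 10, gave the scale for ratios taken within a sample, which do not depend on scaling between samples. Rela stood at 34.8 and 42.1 FPKM in Laser, 38.1 and 33.3 FPKM in PC-La and 43.8 and 38.9 FPKM in SePC-La. The level of Nfkbia was 2.92 and 1.37 times that of Rela in Laser, 1.53 and 1.88 times in PC-La and 3.06 and 4.48 times in SePC-La. Against the sum of the 5 subunits the ratio of Nfkbia was 1.16 and 0.611 in Laser, then 0.677 and 0.722 in PC-La, then 1.20 and 1.84 in SePC-La. On both measures the SePC-La samples were the highest of the 6, with Laser replicate 1 just under the lower of them. The level of Relb was 2.97 and 3.61 times that of Rel in Laser, 3.81 and 2.77 times in PC-La and 6.29 and 5.32 times in SePC-La, where the SePC-La pair lay apart from the rest. Without Nfkbia the other 9 genes summed to 117 and 83.1 FPKM in Laser, 106 and 116 FPKM in PC-La and 119 and 125 FPKM in SePC-La. These ratios were chosen with the levels known and carry no test.

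The levels of the genes for nuclear IκB proteins and ubiquitin regulators overlapped between SePC-La and Laser in all 4 cases. Nfkbiz (ENSMUSG00000035356, chr16:55811375-55838899), whose product IκBζ is needed for secondary response genes of inflammation, had 32.0 and 11.4 FPKM in Laser, 31.2 and 30.6 FPKM in PC-La and 21.6 and 30.2 FPKM in SePC-La. Its highest and its lowest level were thus both in Laser, and both SePC-La samples lay under both PC-La samples. The log2 fold change was 0.39 in SePC-La against Laser, 0.65 in PC-La against Laser and −0.26 in SePC-La against PC-La (SE 0.46 for each, limma adjusted p = 0.732, 0.762 and 0.743).

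Bcl3 (ENSMUSG00000053175, chr7:19808462-19822770), a nuclear partner of p50 and p52 homodimers, was at 11.2 and 2.61 FPKM in Laser, 9.18 and 9.80 FPKM in PC-La and 8.89 and 12.6 FPKM in SePC-La. Laser replicate 2, with 114 reads, was far below the other 5 samples, which lay between 8.89 and 12.6 FPKM and overlapped between the groups. Against Laser the log2 fold change reached 0.81 in SePC-La and 0.66 in PC-La (SE 0.56, limma adjusted p = 0.577 and 0.772) and 0.15 in SePC-La against PC-La (SE 0.56, limma adjusted p = 0.884). Of its exon bases 6.51% are shared with Gm16175, an antisense gene. Bcl3 and Relb lie 179023 bases apart on the same chromosome.

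Tnfaip3 (ENSMUSG00000019850, chr10:19000910-19015657) encodes A20, which edits ubiquitin chains and shuts the kinase complex off. It was at 6.07 and 3.72 FPKM in Laser, 4.56 and 4.85 FPKM in PC-La and 4.56 and 7.73 FPKM in SePC-La. Birc3 (ENSMUSG00000032000, chr9:7848699-7873186), the ubiquitin ligase cIAP2, was at 6.63 and 3.56 FPKM in Laser, 5.49 and 6.95 FPKM in PC-La and 3.88 and 6.50 FPKM in SePC-La. For both genes the groups overlapped in all 3 comparisons, and the SePC-La samples differed about as much from each other as the Laser samples did. Between SePC-La and Laser the log2 fold change was 0.27 for Tnfaip3 (SE 0.27, limma adjusted p = 0.692) and 0.04 for Birc3 (SE 0.31, limma adjusted p = 0.972), and against PC-La 0.29 and −0.25 (limma adjusted p = 0.528 and 0.639). Birc2, named here as a similar gene that lies 11634 bases away from Birc3, can share reads with it. Birc2 was at 11.6 and 9.64 FPKM in Laser, 11.5 and 11.1 FPKM in PC-La and 6.65 and 8.87 FPKM in SePC-La, so that its SePC-La samples lay below the other 4.

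The Laser pair divided the 10 genes. In 5 of them, Bcl3, Nfkbiz, Birc3, Nfkbia and Tnfaip3, replicate 1 was over 1.5 times replicate 2, with ratios of 4.27, 2.79, 1.86, 1.77 and 1.63. In the other 5, the 4 subunits and Nfkbie, the Laser samples were within 1.3 times of each other. Over the 6 samples, 6 of the 10 genes had their lowest level in Laser replicate 2. The PC-La samples were within 1.3 times of each other for 8 genes and the SePC-La samples for 6. The matching shares of all genes were not counted, so these counts describe the 10 genes without setting them apart from other genes. Laser replicate 2 also stood apart in skeletal muscle markers, and it differed from Laser replicate 1 in fibroblast markers. The 6 skeletal muscle markers summed to 137 FPKM there and to at most 20.9 FPKM elsewhere, and the 6 fibroblast markers to 283 FPKM there against 1239 FPKM in Laser replicate 1. In the SePC-La samples the fibroblast sum was 117 and 631 FPKM. Il1b, which encodes the NF-κB activating cytokine IL-1β, was at 6.36 FPKM in Laser replicate 2, and the other 5 samples had between 51.5 and 107 FPKM. The part of these cells in the low values of the 5 genes was not tested.

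Leaving out Laser replicate 1, so that Laser replicate 2 alone stood for the group, moved the genes of the nuclear IκB proteins most. For Bcl3 the log2 fold change then became 1.69 in SePC-La (limma adjusted p = 0.0456) and 1.54 in PC-La (limma adjusted p = 0.0367). For Nfkbiz it became 1.09 in SePC-La (limma adjusted p = 0.111) and 1.36 in PC-La (limma adjusted p = 0.0410). In this fit 3 of the 10 genes met the screen in SePC-La, against 2.33% of all genes, and 2 in PC-La, against 6.12%. An adjusted p under 0.05 was then reached by 97 and 312 of all genes, where the lone Laser sample is assumed to vary like the others. Without Laser replicate 2, in contrast, the log2 fold changes in SePC-La were −0.07 for Bcl3, −0.31 for Nfkbiz, −0.02 for Tnfaip3 and −0.33 for Birc3, and the median of the 10 was 0.05. Relb, Nfkbia, Nfkbie, Nfkb1 and Nfkb2 stayed above 0 and Rel below 0 without either Laser sample.

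**Figure D4:**
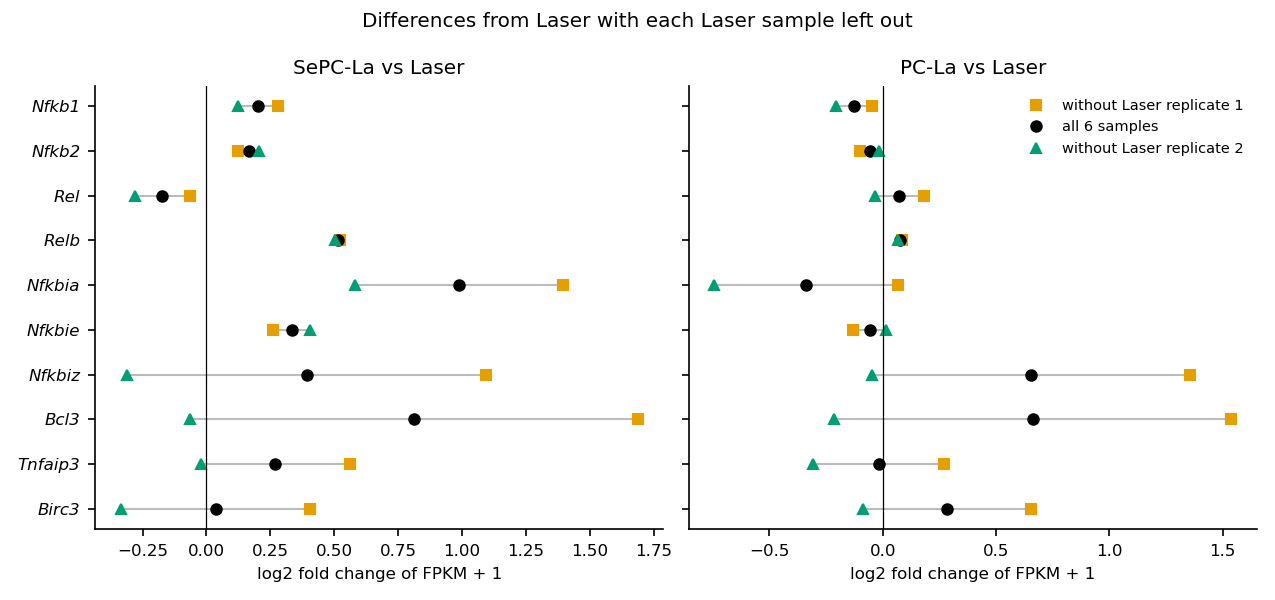
Log2 fold change of FPKM + 1 (horizontal axes) of each gene in SePC-La against Laser (left) and PC-La against Laser (right), with all 6 samples (black circles), without Laser replicate 1 (orange squares) and without Laser replicate 2 (green triangles). Bcl3 runs from −0.07 to 1.69 on the left, while the 3 points of Relb lie together.

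The rest of the pathway was read from 4 lists of genes by role. Of the kinases and adaptors that carry the signal, 28 of 29 passed the filter on low values and none met the screen in any comparison. The levels of Rbck1, which encodes a subunit of the linear ubiquitin ligase, and Tab2, which encodes an adaptor of the kinase TAK1, were the highest of this list, and they ranged from 34.1 to 39.4 FPKM and from 25.0 to 28.1 FPKM over the 6 samples. Their log2 fold changes lay between −0.14 and 0.09, so that both were near level across the groups. The median of the list was −0.10 in SePC-La against Laser, 0.04 in PC-La against Laser and −0.09 in SePC-La against PC-La, beside 0.30, 0.03 and 0.25 for the 10 genes.

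Of Rela and the other inhibitors, 14 of 16 passed the filter and none met the screen. Those with the highest mean levels were Rela and Tax1bp1, an adaptor of A20 that ranged from 23.1 to 32.4 FPKM with a log2 fold change of −0.14 in SePC-La against Laser. At an unadjusted p under 0.05, 3 of the 14 were higher in SePC-La than in Laser, against 4.9% of all genes, and 1 was lower, against 7.24%. These 4 are named after their values were seen. Nfkbib, which encodes IκBβ, the third classical inhibitor, was at 11.6 and 13.3 FPKM in Laser, 10.9 and 11.7 FPKM in PC-La and 18.6 and 16.7 FPKM in SePC-La. In SePC-La its log2 fold change was 0.48 against Laser and 0.60 against PC-La (limma adjusted p = 0.376 and 0.126). Zc3h12a, which encodes a nuclease that degrades inflammatory mRNAs, differed from Laser and PC-La by 0.71 and 0.84, Tnip1, which encodes a partner of A20, by 0.35 and 0.37, and the ubiquitin ligase gene Itch by −0.38 and −0.36.

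Of the ligands and receptors, 13 of 20 passed the filter and none met the screen, with medians of 0.04, 0.22 and −0.24 in the 3 comparisons. Il1b and Tnfrsf1a, the gene of the TNF receptor, had the highest mean levels. Tnfrsf1a ranged from 45.7 to 56.7 FPKM, and Il1b had a log2 fold change of 2.22 in SePC-La against Laser with an SE of 1.06 (limma adjusted p = 0.461).

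Of the 30 target genes outside the 10, 27 passed the filter. In SePC-La against Laser 3 met the screen, all higher, against 0.682% of all genes, namely Cxcl1 at 1.68, Ier3 at 1.16 and Gadd45b at 1.15 on the log2 scale, and the median of the list was 0.64. In SePC-La against PC-La 5 met it, all higher, against 2.98%, namely Cxcl2 at 2.32, Ier3 at 1.68, Cxcl1 at 1.66, Myc at 1.51 and Gadd45b at 1.33, and the median was 0.10. In PC-La against Laser 3 others met it, all higher, against 1.29%, namely Bcl2a1a at 1.22, Plau at 1.21 and Cxcl10 at 1.06, and the median was 0.16. None of them had an adjusted p under 0.05 from limma. How the values of this and the other pathway lists change without either Laser sample was not examined. Ier3, an immediate early gene that modulates cell survival, was at 159 and 95.8 FPKM in Laser, 83.2 and 88.9 FPKM in PC-La and 289 and 266 FPKM in SePC-La. Like Nfkbia it was highest in both SePC-La samples and higher in Laser replicate 1 than in the other 3 samples. Cxcl1, the gene of a neutrophil chemokine, was at 55.6 and 17.4 FPKM in Laser, 35.0 and 29.1 FPKM in PC-La and 80.4 and 131 FPKM in SePC-La, and Ccl2, the gene of a monocyte chemokine, reached 397 and 436 FPKM in SePC-La with at most 259 FPKM elsewhere. Bcl2a1a, a survival gene, had 8.28 and 11.1 FPKM in PC-La and at most 5.16 FPKM in the other samples. It has near-identical copies, and how reads that match several copies were counted is not given in the sources used here.

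**Figure D5:**
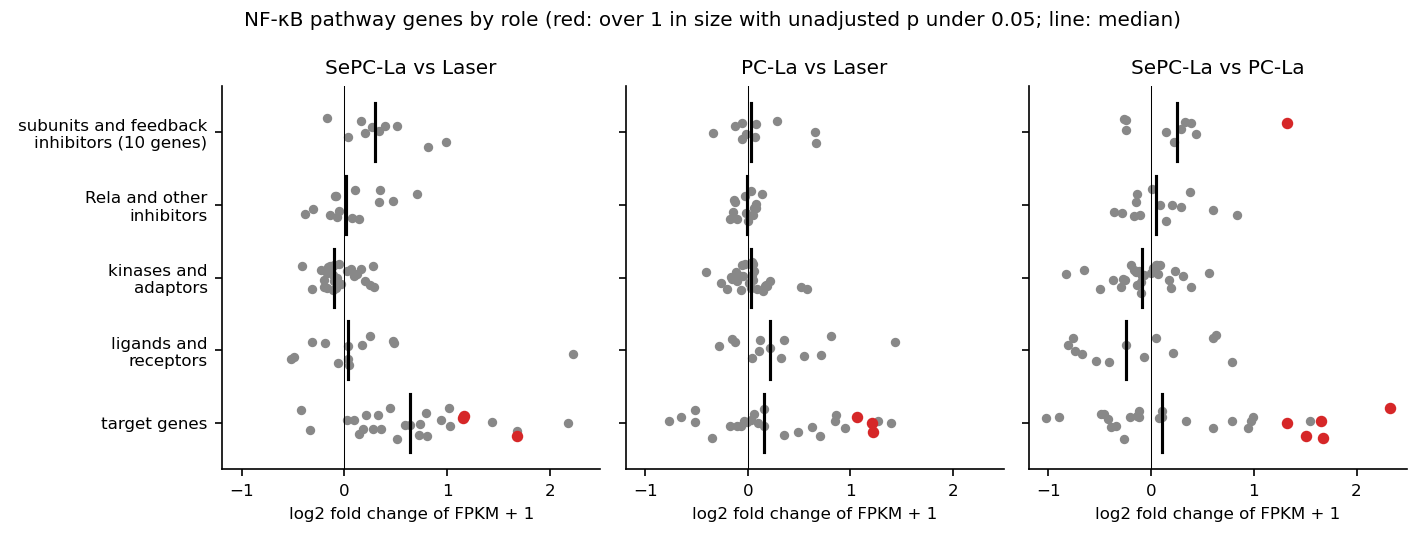
Log2 fold change of FPKM + 1 (horizontal axes) of the 10 genes and of the genes of 4 pathway lists, 1 point per gene, in SePC-La against Laser, PC-La against Laser and SePC-La against PC-La, with black lines for the median and red points for genes over 1 in size with an unadjusted p under 0.05. Among the 10 genes the 1 red point is Nfkbia at 1.32, and the other red points are target genes.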

How the data were processed

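Tumor RNA was sequenced in 6 samples, 2 per group, which were assigned to Laser, PC-La and SePC-La by their titles. The authors deposited 1 table of FPKM values per gene and sample. The submitters' processing notes name HISAT2 2.0.5, HTSeq 0.9.1, DESeq 1.30.0 and the build mm9, without saying which step each served. Neither the annotation nor the strand setting is given in the sources used here. Multiplied by the merged exon lengths of GENCODE M21 (GRCm38), the deposited FPKM gave whole reads in all 6 samples, within 0.05, for 97.9% of 16768 expressed genes, and for all 10 genes described. No sample columns were left unused (0).

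The 10853 genes whose 6-sample mean reached 1 FPKM were fitted with limma 3.58.1 (R 4.3.3) on log2(FPKM + 1), with a mean per group, a trend, robust estimation and Benjamini-Hochberg adjustment. The step was run on simulated data with a small fixed spread and large changes only. That does not show how it performs with the spread of these samples. No scaling was added to the deposited FPKM. The 10 genes and all lists, for pathway genes and cell type markers, were chosen with earlier results of these data known. The rule for named genes took the 10, every listed pathway gene that met the screen, the 2 genes of each list with the highest mean, and Rela. Nfkbib, Zc3h12a, Tnip1, Itch and Birc2 were named outside it, after their values were seen. Values came from Python 3.11.15 with pandas 2.3.3 and NumPy 2.4.6, and plots from matplotlib 3.10.9. Gene positions are those of GENCODE M21 on GRCm38 and promoter windows those of RefSeq on GRCm38.p6. With 2 samples per group, alternatives were other pseudocounts, filters, scalings and moderation, a replicate block, voom and each sample left out.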

Additional observations from a re-analysis of the deposited data

How the results depend on the processing

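With 2 samples per group the spread of each gene rests on few values, and each value of the 10 genes rests on 114 reads or more. Over 10 settings other than leaving out a sample (9 for Rel, which a minimum mean of 5 FPKM leaves out), every log2 fold change of the 10 genes kept its sign but that of Rel in PC-La against Laser, −0.018 under quantile normalization. The cause was not tested. The number of the 10 meeting the screen in SePC-La against Laser was 1 with median-ratio scaling (0.783% of all genes), 0 in the reported fit (0.682%), and 0 to 3 with a sample left out, 3 of them without Laser replicate 1 (2.33%). In PC-La against Laser it was 0 to 2 with a sample left out, 2 without Laser replicate 1 (6.12%), and in SePC-La against PC-La 1 in the reported fit. The median of the 10 in SePC-La against Laser ranged from 0.051 to 0.47 with a sample left out, the lowest without Laser replicate 2.

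With a sample left out, values ranged as follows. In SePC-La against Laser they ran from −0.31 to 1.09 for Nfkbiz, −0.066 to 1.69 for Bcl3, −0.056 to 0.60 for Tnfaip3 and −0.33 to 0.41 for Birc3. In PC-La against Laser they ran from −0.74 to 0.069 for Nfkbia, −0.31 to 0.27 for Tnfaip3, −0.15 to 0.30 for Rel, −0.30 to 0.18 for Nfkbie, −0.049 to 1.36 for Nfkbiz, −0.21 to 1.54 for Bcl3, −0.087 to 0.65 for Birc3 and −0.0043 to 0.16 for Relb. In SePC-La against PC-La they ran from −0.56 to 0.061 for Birc3, −0.084 to 0.38 for Bcl3 and −0.037 to 0.61 for Tnfaip3.

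The replicate numbers mark nothing shared per the labels, and same-numbered samples deviated with correlations of −0.43, 0.09 and −0.18 in the 3 pairs of groups. With the replicate block the medians of the 10 were 0.30, 0.03 and 0.25, as without it, and 0 genes had an adjusted p under 0.05. Over all genes in SePC-La against PC-La, 128 met the screen as higher and 195 as lower, which became 166 and 149 with median-ratio scaling, 169 and 149 with quantile normalization, 171 and 317 with a pseudocount of 0.1, and 92 and 94 at a minimum mean of 5 FPKM. In SePC-La against Laser, 59 and 15 became 75 and 54 with a pseudocount of 0.1, and in PC-La against Laser 94 and 46 became 47 and 21 at a minimum mean of 5 FPKM. Leaving out a sample moved these counts further. In SePC-La against Laser they became 179 and 74 without Laser replicate 1, and with Laser replicate 2 left out they became 50 and 159. Without SePC-La replicate 2 they were 61 and 92. In PC-La against Laser they were 518 and 146 without Laser replicate 1, and with Laser replicate 2 left out 41 and 40. In SePC-La against PC-La they were 115 and 54 without SePC-La replicate 1, and 165 and 419 without SePC-La replicate 2.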
